A study of Canis lupus familiaris with 36 samples.

Results

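GZMA, GZMB and PRF1 encode granzyme A, granzyme B and perforin, the proteins that cytotoxic lymphocytes release to kill other cells. They are 3 of the 44 immune genes, and of 48 genes in all, on a custom canine panel. They were chosen by name as the cytolytic genes of that panel and not by a cut on their values. Earlier results of these data were known at that time. The panel was measured with NanoString nCounter, which counts RNA molecules directly with color-coded probes. Total RNA came from 34 naturally occurring oral squamous cell carcinomas (OSCC) of pet dogs and 2 canine samples labeled mucosal stroma. The study describes its 2 mucosa samples as normal. The tumors carry no treatment label, and the samples were archived tissue, frozen or formalin-fixed, with no label that says which was which. The methods of the study also name flash-frozen tumor tissue of lymph nodes as a source of RNA. No label says whether any of these samples came from a lymph node. The labels number each sample as a separate patient, while the study counts 33 dogs for these 36 samples, so at least some samples share a dog and which ones is not labeled. The p-values below treat each sample as independent.

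Cytotoxic T cells and natural killer (NK) cells store perforin and granzymes together in granules. Perforin opens pores in the membrane of a target cell, and the granzymes are proteases that pass through and start its death, granzyme B by cutting caspases and granzyme A mainly by other routes. CD8a, a co-receptor of cytotoxic T cells, NCR1, a receptor of NK cells, and CD3e, a chain of the T cell receptor complex, mark the cells that could supply these transcripts on this panel. The panel holds no epithelial gene, so the tumor and mucosa labels could not be checked against one. In bulk tissue, fewer cytotoxic cells and less RNA per cell cannot be told apart.

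The deposited values are counts multiplied by 1 factor for each sample, set by 4 housekeeping genes, and are given here as log2 normalized signal. Values of different genes come from different probes and are not compared as levels. The recovered totals over the 48 genes were 27092 to 665587 counts in the tumors (median 224716) and 117883 and 149876 in the mucosa samples. Log2 total counts were correlated with 6 of 44 immune genes across tumors (permutation test, adjusted p under 0.05, 13.6%), and the 3 cytolytic genes were not among them (r = 0.14 for GZMA, 0.23 for GZMB and 0.21 for PRF1). By their positive controls (POS_B over POS_C, above or below 2) the samples fell into a first batch of 7 tumors and both mucosa samples and a later batch of 27 tumors. These batches were read from the controls alone, and the names first and later follow the order of patient numbers, not a known date. What else differed between these batches is not given in the sources used here.

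All 3 cytolytic genes varied widely between tumors, and limma called GZMB and PRF1 higher in tumors than in mucosa. GZMA, the granzyme that acts mainly without caspases, ran from 5.24 in the tumor of patient 6 through a median of 7.60 to 10.27 in the tumor of patient 34, a 32.7-fold span whose low end is only a bound, since it was not above background, and was 5.66 and 6.06 in the mucosa of patients 8 and 9. In 30 tumors the value was above both mucosa samples, in 3 between them and in 1 below both, so the groups overlapped. The tumor mean was 7.62 ± 1.32 (SD, n = 34). The difference from mucosa was 1.75 on the log2 scale (standard error 0.91), which did not pass the test (limma adjusted p = 0.137).

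GZMB, the caspase-cutting granzyme, ran from 5.89 in the tumor of patient 15 through a median of 8.67 to 11.24 in the tumor of patient 1, a 40.7-fold span. The mucosa samples were at 5.02 and 6.04. Only the tumor of patient 15 lay between the mucosa samples, and the other 33 lay above both. The tumor mean was 8.86 ± 1.18 (SD, n = 34), and GZMB rose by 3.33 on the log2 scale (standard error 0.83, limma adjusted p = 0.00328). PRF1, the pore-forming protein, ran from 4.65 in the tumor of patient 15 through a median of 7.14 to 9.62 in the tumor of patient 34, a 31.3-fold span, against 4.08 and 4.96 in mucosa. Again 33 tumors lay above both mucosa samples and only that of patient 15 lay between them. The tumor mean was 7.30 ± 1.20 (SD, n = 34), and PRF1 rose by 2.78 on the log2 scale (standard error 0.84, limma adjusted p = 0.00981).

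These calls stand against 15 of 44 immune genes called in the same fit (34.1%), and the median immune gene was itself higher in tumors by 1.21 on the log2 scale. With samples rescaled to equal medians of the immune genes, the differences were 2.12 for GZMB (limma adjusted p = 0.0198), 1.57 for PRF1 (limma adjusted p = 0.0473) and 0.55 for GZMA (limma adjusted p = 0.516). Within the first batch, which holds both mucosa samples, the differences were 3.38 for GZMB (limma adjusted p = 0.0279), 2.73 for PRF1 (limma adjusted p = 0.0295) and 1.24 for GZMA (limma adjusted p = 0.32). The tumors differed little between batches in GZMB, at a mean of 8.91 in the first and 8.84 in the later batch, and in PRF1, at 7.25 and 7.31. The mean of GZMA was 7.10 in the first batch and 7.75 in the later one. CD8a was at 7.75 and 9.78. Of the 6 markers of cell types on the panel, only FOXP3 was called against mucosa (difference 1.83, limma adjusted p = 0.0368). The T cell markers had larger differences than GZMA that did not pass the test, CD3e with one of 2.36 (limma adjusted p = 0.0535) and CD8a with one of 2.14 (limma adjusted p = 0.155), and they exceeded both mucosa values in 27 and 29 tumors. NCR1 was below background in both mucosa samples. The part of these cells in the differences was not tested.

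An exact permutation test over the 630 placements of the mucosa labels, two-sided, gave p = 0.0635 for GZMA and p = 0.00317 for GZMB and for PRF1, and the smallest p it allows is 0.00159. After adjustment over 44 genes, the exact p was 0.133, 0.0175 and 0.0175 in that order. An unequal-variance test turned the calls around, with an adjusted p of 0.00866 for GZMA, 0.149 for GZMB and 0.147 for PRF1. That test takes the variance of mucosa from 2 values alone. Those of GZMA (5.66 and 6.06) lay closer together than those of GZMB (5.02 and 6.04) or PRF1 (4.08 and 4.96). The calls rested on few mucosa samples. Without the mucosa of patient 8, limma adjusted p was 0.068 for GZMB and 0.143 for PRF1, and without that of patient 9 it was 0.0307 for GZMB and 0.0518 for PRF1. In the mucosa of patient 8, PRF1 had 14 counts while the negative controls set the background at 16.4, so this level is only a bound. PRF1 was above background in all 34 tumors and so was GZMB, and GZMA was in 33, the exception being the tumor of patient 6 with 26 counts against a background of 45.8.

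**Figure D1:**
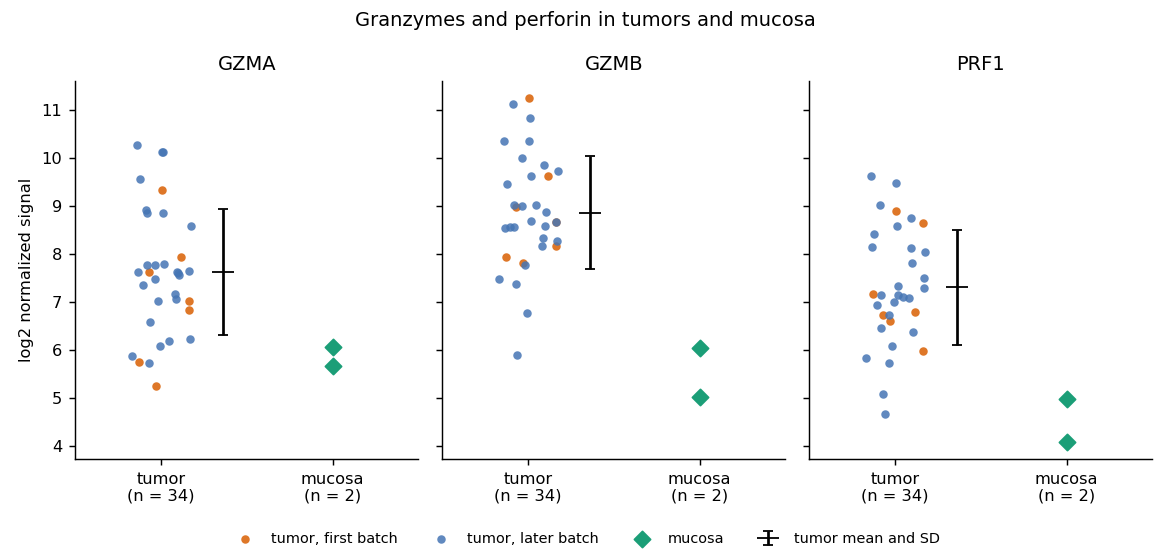
Log2 normalized signal (vertical axis) of GZMA, GZMB and PRF1 in 34 tumors, colored by batch, and 2 mucosa samples; the cross and bar give the tumor mean and SD. For GZMB and PRF1, 33 tumors lie above both mucosa samples, and for GZMA 30 do. Heights are comparable within a gene and not between genes.

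Since both genes of a log2 difference share the factor of their sample, the balance between the 3 genes does not depend on scaling. GZMB minus GZMA was -0.64 and -0.02 in the mucosa samples and ran from -0.68 in the tumor of patient 15 through a median of 1.25 to 2.85 in the tumor of patient 35. It was above both mucosa values in 30 tumors, between them in 3 and below both in 1. The GZMB probe thus stood higher relative to the GZMA probe in most tumors than in either mucosa sample, including all 7 tumors of the first batch, where it ran from 1.34 to 2.57. The 2.57 is from the tumor of patient 6, whose GZMA was not above background, so it and the mean of the first batch are bounds. In the 27 later tumors the mean was 1.09 ± 0.88 (SD), against 1.81 ± 0.45 in the first 7.

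PRF1 minus GZMA was -1.59 and -1.10 in mucosa and ran from -1.92 in the tumor of patient 15 through a median of -0.59 to 1.81 in the tumor of patient 4, with 25 tumors above both mucosa samples. GZMB minus PRF1 was 0.95 and 1.07 in mucosa and ran from -0.47 in the tumor of patient 4 through a median of 1.65 to 4.27 in the tumor of patient 20, with 23 tumors above both and 8 below both. The values -1.59 and 0.95 are from the mucosa of patient 8, whose PRF1 was below background, so they are bounds and the counts of tumors set against them are uncertain. These differences follow from the levels given above and were not tested against mucosa.

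**Figure D2:**
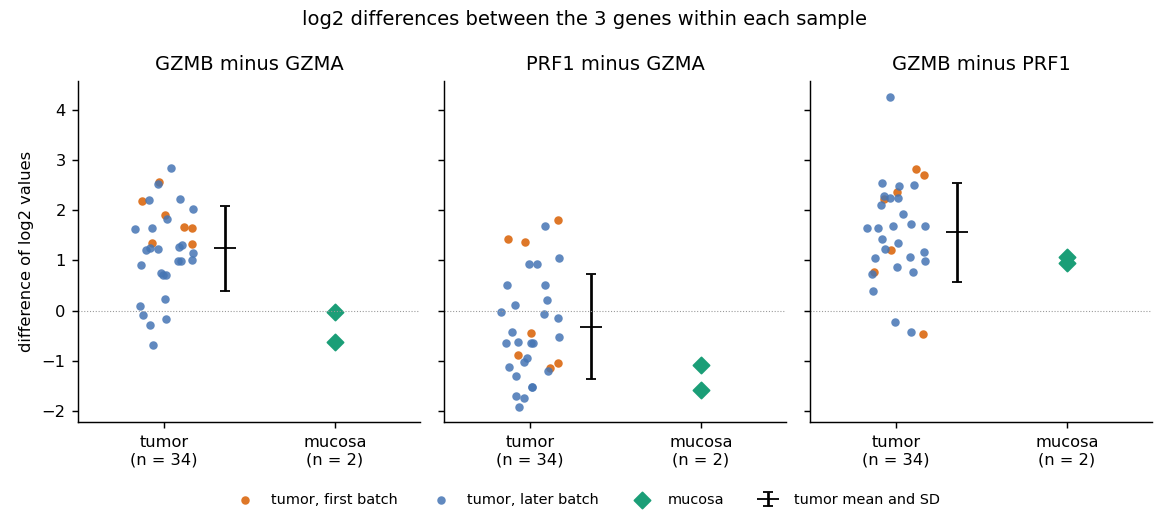
Difference of the log2 values of 2 cytolytic genes within each sample (vertical axis) in 34 tumors, colored by batch, and 2 mucosa samples; the cross and bar give the tumor mean and SD. GZMB minus GZMA lies above both mucosa samples in 30 tumors, and GZMB minus PRF1 in 23.

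Across tumors the 3 genes rose and fell together, and single tumors broke the pattern. Correlations were computed for all pairs of the 44 immune genes, with a two-sided permutation test (100000 permutations, smallest p 1e-05) and Benjamini-Hochberg adjustment over all pairs. Of these pairs 291 were called (30.8%), and the median r over all pairs was 0.20. GZMA and GZMB had r = 0.77 (Spearman rho = 0.80, permutation p = 1e-05, adjusted p = 0.00015), the 29th highest of all pairs. GZMA and PRF1 had r = 0.66 (rho = 0.59, permutation p = 3e-05, adjusted p = 0.000315), and GZMB and PRF1 had r = 0.65 (rho = 0.50, permutation p = 8e-05, adjusted p = 0.000707). These pairs with PRF1 were the 89th and 91st highest of all. With PRF1, GZMA and GZMB ranked 7th and 8th by r, so other immune genes, CD3e among them, lay closer to it. A single component of the 3 genes held 79.9% of their summed variance. Other sets of 3 genes were not compared in this way.

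Leaving out each tumor in turn kept r between 0.75 and 0.80 for GZMA and GZMB, between 0.61 and 0.70 for GZMA and PRF1, and between 0.58 and 0.72 for GZMB and PRF1. Without the 2 tumors farthest from the median of GZMA (patients 33 and 34), GZMA had r = 0.74 with GZMB and 0.55 with PRF1. Without the 2 farthest in GZMB (patients 1 and 15), GZMB and PRF1 had r = 0.55. Within the 7 first tumors, r was 0.95 for GZMA and GZMB, 0.45 for GZMA and PRF1 and 0.45 for GZMB and PRF1, and within the 27 later tumors it was 0.75, 0.72 and 0.70. The granzymes were not shown to be closer to each other than to perforin: GZMA correlated more with GZMB than with PRF1 by 0.11 and GZMB more with GZMA than with PRF1 by 0.12 (permutation test of the difference, adjusted p = 0.665 for both, over 3 differences).

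The tumors at the ends were in part the same ones for each gene. The tumors of patients 1, 14, 22, 33 and 34 were among the 10 highest in all 3 genes, and those of patients 6, 12, 15, 17 and 18 were among the 10 lowest in all 3. In some tumors perforin departed from one or both granzymes. In the tumors of patients 4 and 23, PRF1 was 8.64 and 8.75, well above its median, while GZMA was 6.83 and 7.06, below its median. In the tumor of patient 20, PRF1 was 5.72, among its 3 lowest values, and GZMA was 7.47, just below its median. GZMB there was high at 9.99, rank 29 of 34 from low to high, so this tumor stood out by GZMB as well. These 3 tumors were picked after their values were seen. Their PRF1 counts of 308, 418 and 28 were each above the background of the sample.

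**Figure D3:**
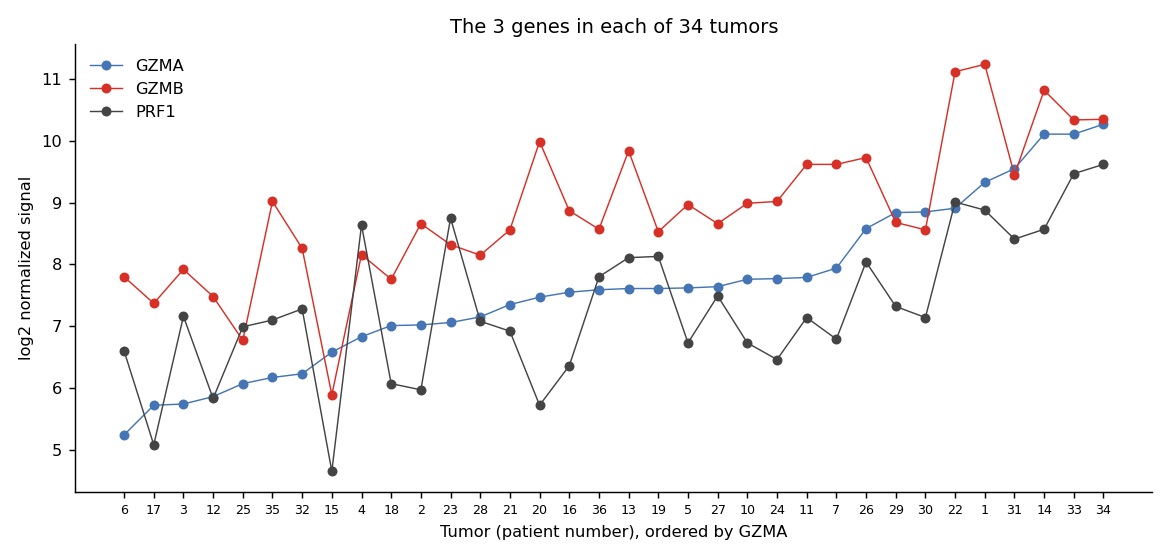
Log2 normalized signal (vertical axis) of GZMA, GZMB and PRF1 in each of 34 tumors, ordered by GZMA (horizontal axis, patient number). The genes climb together from left to right, with PRF1 high in the tumors of patients 4 and 23 and low in that of patient 20.

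**Figure D4:**
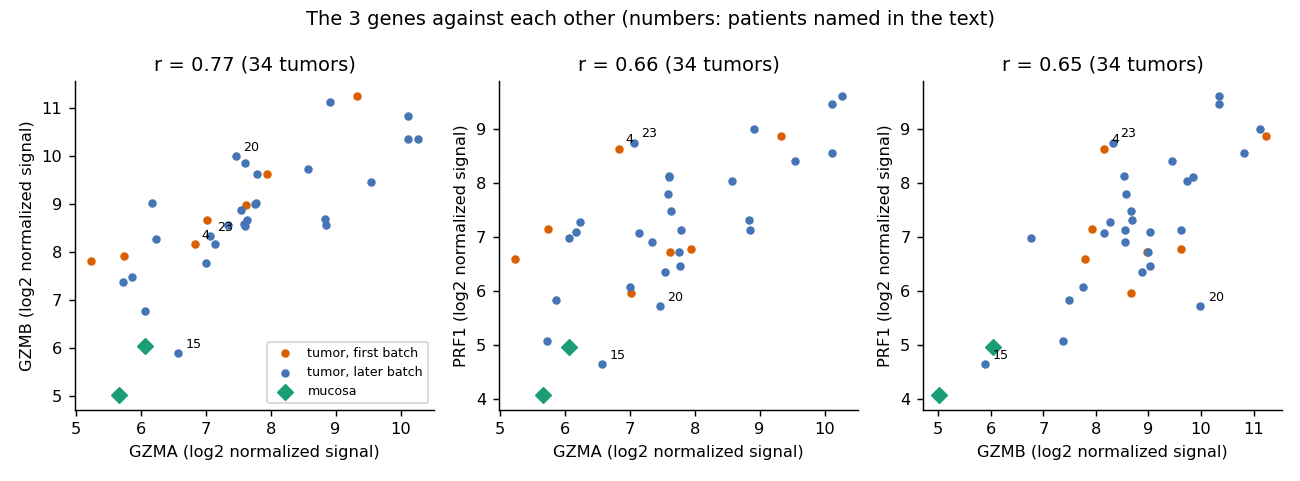
The 3 pairs of cytolytic genes plotted against each other as log2 normalized signal, 1 point per sample, tumors colored by batch and mucosa as diamonds; r is over the 34 tumors. The tumors of patients 4, 15, 20 and 23 are numbered, and both mucosa samples lie at the low end of each plot.

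Most immune genes called with one cytolytic gene were called with the others, T cell receptors among them. GZMA was called with 19 of the 43 other immune genes, all positive, GZMB with 20, all positive, and PRF1 with 22, of which 21 were positive. Against the 30.8% of all pairs, these shares were 44.2%, 46.5% and 51.2%. Of the 41 immune genes outside the trio, 13 were called with all 3 members, and 5 with exactly 2. Without the tumors of patients 33 and 34, which had the highest CD3e of all, the calls were 12 for GZMA, 17 for GZMB and 14 for PRF1. The calls over all pairs fell as well, to 208 from 291. The tumors of patients 33 and 34 were alike, at 13.89 and 14.19 in CD3e and 13.48 and 13.32 in CD8a. Whether they share a dog is not labeled.

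The genes most like each member, by r over the 34 tumors, were led by TBX and CD27 when the other cytolytic genes, given above, are left out. For GZMA the highest was TBX, listed under that name in the files and grouped here with the type 1 effector genes, at r = 0.82 (rho = 0.76, adjusted p = 0.00015, permutation test), followed by CD8a at 0.74, CD3e at 0.67, CD40, a receptor of antigen-presenting cells, at 0.67, and CD27, a costimulatory receptor of T cells, at 0.66. Without patients 33 and 34 GZMA and TBX had r = 0.75, and within the first and later batches r was 0.76 and 0.83. For GZMB the highest were TBX at 0.69, CXCL2, a chemokine that attracts neutrophils, at 0.68, CD27 at 0.65, CD28 at 0.63 and ICOS at 0.61. The latter pair are costimulatory receptors of T cells. GZMB and CXCL2 had r = 0.81 in the first batch and 0.67 in the later one (rho = 0.66 over all tumors). CXCL2 was itself among the genes correlated with total counts (r = 0.51), and its part in this relation was not tested.

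For PRF1 the highest was CD27 at r = 0.83 (rho = 0.81, adjusted p = 0.00015, permutation test), with 0.80 in the first and 0.86 in the later batch. It was followed by CTLA4, an inhibitory receptor of activated and regulatory T cells, at 0.74, ICOS and CD28 at 0.73 each, and CD3e at 0.73. Without the 2 tumors farthest in PRF1 (patients 15 and 34), PRF1 and CD27 had r = 0.77. At the other end, the lowest were IL6 at -0.36 and BCL6 at -0.35 with GZMA, TGFb at -0.28 and IL6 at -0.26 with GZMB, and BCL6 at -0.41 and KDM6B at -0.35 with PRF1. IL6 and TGFb are cytokines, BCL6 is a transcriptional repressor of follicular helper T cells and germinal center B cells, and KDM6B is a histone demethylase. Of these only PRF1 and BCL6 was called (adjusted p = 0.0482, permutation test), and not by Spearman rho (rho = -0.39, adjusted p = 0.08, permutation test).

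Grouped by role, most listed receptors of T cells were called with the cytolytic genes, where 30.8% of all pairs were called. The lists differ in size, so their numbers of calls are not ranked. CD40, in none of these lists, was called with all 3 as well. Both genes of the T cell receptor and co-receptor list (CD3e and CD8a) were called with all 3 cytolytic genes. Of 4 costimulatory receptors, CD27, CD28 and ICOS were called with each cytolytic gene, and OX40 with none (r = -0.33 with GZMA, -0.11 with GZMB and -0.04 with PRF1). Of 3 inhibitory receptors, PD-1 and LAG3 were called with each, and CTLA4 with GZMB (r = 0.60) and PRF1 but not with GZMA (r = 0.40, permutation test, adjusted p = 0.0571). FOXP3, the regulatory T cell factor, was called with PRF1 (r = 0.65), and had r = 0.39 with GZMA and 0.41 with GZMB, while IL10, a regulatory cytokine, was called with none. Whether these values differ between the members was not tested.

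Among the type 1 effector genes, TBX and IFNg, the cytokine interferon gamma, were called with all 3, TNF with GZMB (r = 0.54) and PRF1 (r = 0.47) and IL2 with none. Of the other death-inducing ligands, TNFSF10, known as TRAIL, was called with all 3 (r = 0.48, 0.53 and 0.47) and TNFSF14, known as LIGHT, with GZMA alone at r = 0.44, which was 0.08 without patients 33 and 34. Of the neutrophil-attracting chemokines, CXCL2 was called with all 3 and IL8 with none (r = -0.31, -0.08 and -0.08). The rows CD274 and PD-L1, names of the same inhibitory ligand, were called with GZMB (r = 0.56 and 0.53) and with neither of the others. Like CXCL2, TNFSF10 (r = 0.57) and CD274 (r = 0.53) were among the genes correlated with total counts, while PD-L1 was not (r = 0.07). The part of total counts in these relations was not tested. The markers of other cells, Pax5 for B cells, CLEC4C for plasmacytoid dendritic cells and NCR1 for NK cells, were called with none, and the highest of these r was 0.39, for PRF1 and NCR1.

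Fewer relations of the cytolytic genes were called once CD3e was accounted for. When the part of each gene that follows CD3e was taken out, 53 of the pairs among the other 43 genes were called (5.87%, permutation test, adjusted over all of them). GZMA was then called with 4 of 42 genes, GZMB with 5 and PRF1 with 1. GZMA and GZMB had r = 0.62 (adjusted p = 0.00665, permutation test), the 15th highest of those pairs. GZMA and PRF1 had r = 0.33 (adjusted p = 0.283, permutation test) and GZMB and PRF1 r = 0.40 (adjusted p = 0.153, permutation test). Whether these r differ from each other given CD3e was not tested. In the later batch alone, GZMA and GZMB had r = 0.55 given CD3e (adjusted p = 0.0562, permutation test). Between GZMA and TBX r was 0.66 and between GZMA and IFNg 0.53, and both were called, as was GZMA with CXCL2 at 0.52. In the later batch alone the calls with IFNg (adjusted p = 0.0603, permutation test) and CXCL2 (adjusted p = 0.105, permutation test) were lost, and with equal medians of the immune genes that with IFNg (adjusted p = 0.0955, permutation test).

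GZMB was called with CXCL2 at 0.58, with the rows PD-L1 at 0.56 and CD274 at 0.55, and with IFNg at 0.55. With equal medians the calls with PD-L1, CD274 and IFNg were lost (adjusted p = 0.0942, 0.0762 and 0.174, permutation test), and in the later batch alone that with IFNg (adjusted p = 0.0711, permutation test). PRF1 was called with CD27 alone, at 0.63 (adjusted p = 0.0028, permutation test), and this call was lost in the later batch alone (r = 0.49, adjusted p = 0.0999, permutation test). CD8a given CD3e had r = 0.42 with GZMA, 0.18 with GZMB and -0.15 with PRF1, none called. The tumor of patient 1 stood highest of all for GZMB relative to its CD3e, by 2.36 on the log2 scale, and also high for GZMA by 1.69 and PRF1 by 1.55. The tumors of patients 33 and 34, highest in GZMA and PRF1, were within 0.49 of the value that their CD3e gave in all 3 genes. These tumors were part of that fit and, with the highest CD3e, weighed heavily on it, so their closeness to it is partly built in.

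**Figure D5:**
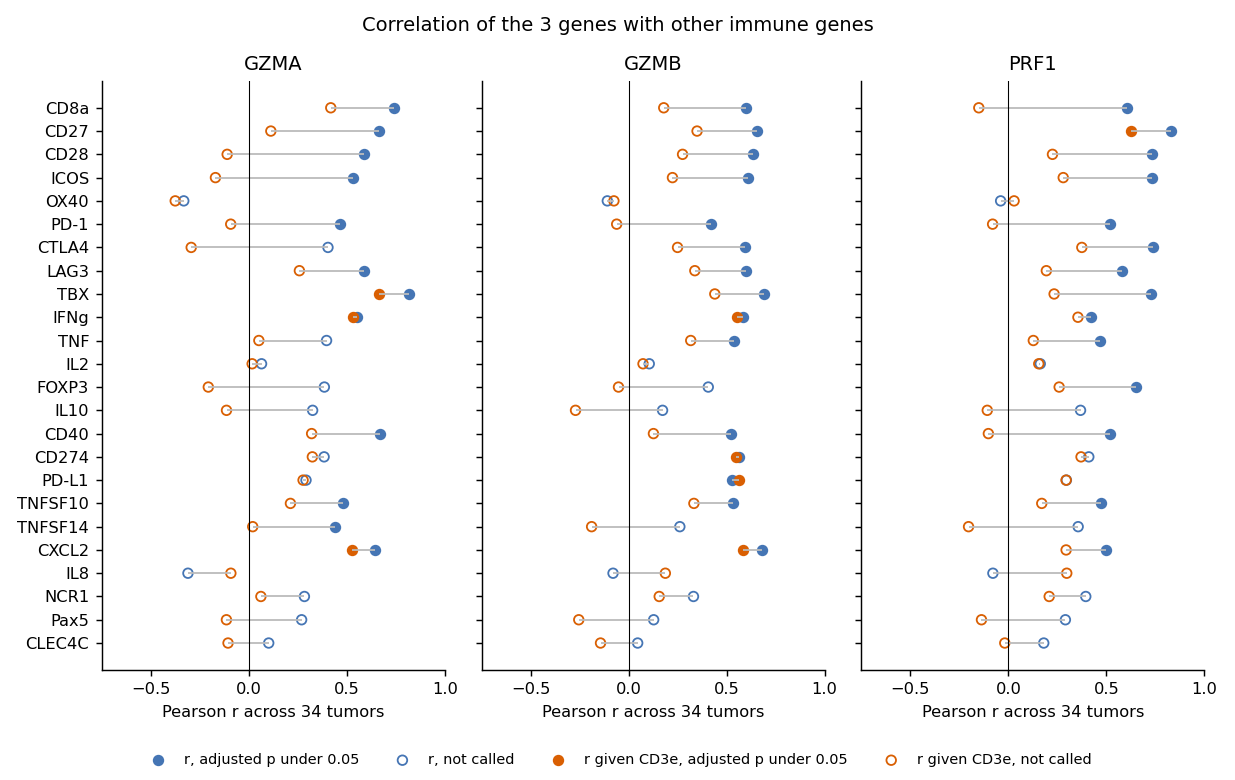
Pearson r (horizontal axis) of GZMA, GZMB and PRF1 with 24 other immune genes across 34 tumors, before (blue) and after (orange) the part that follows CD3e was taken out; filled points passed the permutation test at an adjusted p under 0.05. Those that stay filled are TBX, IFNg and CXCL2 for GZMA, IFNg, CXCL2, CD274 and PD-L1 for GZMB, and CD27 for PRF1.

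Since both cytotoxic T cells and NK cells use these genes, CD8a and NCR1 were entered together as terms of a limma fit across tumors. The CD8a term was called for 25 of 42 genes (59.5%), among them all 3 members. For each step of 1 in log2 CD8a, GZMA changed by 0.54 (standard error 0.09, limma adjusted p = 4.15e-06), GZMB by 0.37 (standard error 0.09, limma adjusted p = 0.000873) and PRF1 by 0.38 (standard error 0.09, limma adjusted p = 0.00073). With equal medians of the immune genes the calls of GZMB and PRF1 were lost, at terms of 0.13 (limma adjusted p = 0.446) and 0.12 (limma adjusted p = 0.454). CD8a alone accounted for 54.7% of the variance of GZMA, 35.7% of that of GZMB and 36.8% of that of PRF1. With NCR1 added, these shares were 56.0%, 39.5% and 43.5%.

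The NCR1 term was called by limma for 0 of 42 genes (0%), and for 1 at an unadjusted p under 0.05. Its estimates were 0.15 for GZMA, 0.24 for GZMB and 0.32 for PRF1 (limma adjusted p = 0.678, 0.618 and 0.616). NCR1 was above background in 24 of 34 tumors and in neither mucosa sample, so many of its values are only bounds. CD8a and NCR1 had r = 0.24 across tumors (rho = 0.12).

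No other immune gene was called with the balance between 2 cytolytic genes. With each of GZMB minus GZMA, PRF1 minus GZMA and GZMB minus PRF1, 0 of 42 genes were called (0%, permutation test of Pearson r, adjusted over all 3 scans together), and 3, 3 and 0 genes had an unadjusted p under 0.05. The smallest adjusted p was 0.624. The largest r in size was 0.37, for OX40 with PRF1 minus GZMA (permutation p = 0.0276) and, with a negative sign, for CCL2 with GZMB minus GZMA (r = -0.37, permutation p = 0.0289). OX40, named also for GZMB minus GZMA at r = 0.36 (permutation p = 0.0358), is a costimulatory receptor, and CCL2 is a chemokine that attracts monocytes. Neither passed the adjustment, and both were picked after their values were seen.

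The relations depended on the scaling between samples. With samples rescaled to equal medians of the immune genes, the median r over all pairs was 0.00 and the calls were 8 for GZMA, 3 for GZMB and 4 for PRF1. The calls over all pairs fell less steeply, to 161 from 291. GZMB and PRF1 were then called with a smaller share of genes than all pairs, and GZMA with about the same share. The larger shares of the 3 members given above were thus not kept under this scaling. Still called with GZMA were TBX (r = 0.64), GZMB (r = 0.58), CXCL2 (r = 0.55) and CD8a (r = 0.46), with GZMB also CXCL2 (r = 0.61), and with PRF1 CD27 (r = 0.58). Among the negative relations that passed then were those of GZMA with IL6 (r = -0.54), GPR146 (r = -0.53), BCL6 (r = -0.50) and OX40 (r = -0.49), of GZMB with IL10 (r = -0.60) and of PRF1 with BCL6 (r = -0.62) and KDM6B (r = -0.46). This scaling subtracts a median of the same genes, so a median r near 0.00 and some negative r are built in. Before it, r was 0.28 for GZMA with GPR146 and 0.17 for GZMB with IL10. After it, GZMA and PRF1 had r = 0.35 (adjusted p = 0.161, permutation test), and GZMB and PRF1 had r = 0.33 (adjusted p = 0.183, permutation test). This scaling also removes a difference in total immune RNA between tumors, and how much of that difference is biological was not tested.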

How the data were processed

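The authors deposited linear normalized signal from NanoString nCounter for 48 genes in 36 samples, with 6 positive and 6 negative controls. The deposited signal was counts times 1 factor for each sample: the geometric mean of 4 housekeeping genes was 8978 in each, and 1712 of 1728 gene values (99.1%) were whole counts (tolerance 0.01) once the factor was divided out. log2 values were used with no pseudocount. The 44 immune genes were fitted with limma 3.58.1 (R 4.3.3) for the difference of tumors from mucosa. Correlations used permutation tests (100000 permutations) in Python 3.11.15, with Benjamini-Hochberg adjustment at a threshold of 0.05. The scripts were tested on simulated data. Background was the mean plus 2 SD of the negative controls. Batches were divided at a control ratio of 2. Genes named are the 3 members, for each the 5 highest and 2 lowest by r, genes called with a ratio, and genes of lists by role. Other named genes were picked after their values were seen. The members and lists were chosen with earlier results of these data known. Some genes are not reported here.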

Additional observations from a re-analysis of the deposited data

How the results depend on the processing

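No paired analysis was possible because the labels do not show which tumor and mucosa samples share a dog. An unequal-variance test called GZMA against mucosa (difference 1.75, adjusted p = 0.00866) and not GZMB (3.33, adjusted p = 0.149) or PRF1 (2.78, adjusted p = 0.147). Its variance of mucosa came from 2 values. Leaving out 1 mucosa sample gave 1.55 to 1.95 for GZMA, 2.82 to 3.83 for GZMB and 2.33 to 3.22 for PRF1, and 4 to 7 genes called in place of 15. With the batch as a term 7 genes were called, and in the first batch alone 9. Equal medians gave r = 0.35 for GZMA and PRF1 and 0.33 for GZMB and PRF1, 8, 3 and 4 genes called with GZMA, GZMB and PRF1, and 161 pairs in place of 291. They gave 3 genes each for GZMB and PRF1 given CD3e, 1 gene with PRF1 minus GZMA, and CD8a terms of 0.13 for GZMB (limma adjusted p = 0.446) and 0.12 for PRF1 (limma adjusted p = 0.454). Without the tumors of patients 33 and 34, 12 genes were called with GZMA, 17 with GZMB and 14 with PRF1, and 208 pairs in all. Given CD3e, the later batch alone gave r = 0.55 for GZMA and GZMB, 1, 3 and 0 genes for GZMA, GZMB and PRF1, and 34 pairs. With CD8a in place of CD3e, 7 genes were called with PRF1 and 81 pairs in all, and without the 4 tumors of under 100000 counts 2 with PRF1. With the mean of CD3e, CD27 and CD28 in place of CD3e, 0 were called with PRF1. CD27, the only gene called with PRF1 given CD3e, was not tested in that setting, so this 0 does not bear on that call. Raising values to background gave 1 gene for the NCR1 term. The difference between the r of PRF1 with GZMA and with GZMB, 0.0028 at first, was -0.00046 without SDHA, -0.018 with patients 33 and 34 as their mean, -0.051 without them and -0.0079 without the 4 shallow tumors. The causes were not tested. Leaving out patients 33 and 34, or the shallow tumors, was chosen after seeing the data. With 2 mucosa samples and as few as 14 PRF1 counts in one, the precision of the mucosa levels is limited.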
